A study of Rattus norvegicus with 14 samples.

Results

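The comparison set soleus muscle tenotomized for 1 week against soleus muscle tenotomized for 2, 3 or 4 weeks, to separate genes that changed early and transiently from genes that changed later or held. Its members were the 6 arrays that the labels call short-term immobilized, split by the week in the title: 2 arrays at 1 week (rats 12 and 13) and 4 arrays at 2 weeks (rats 25 and 27), 3 weeks (rat 32) and 4 weeks (rat 42). These are 6 of the 14 arrays of the series. The other arrays were 4 controls (the left soleus of 4 rats, with no immobilization) and 4 muscles tenotomized for 6, 6, 16 and 22 weeks. Rats 61 and 62 gave both a control muscle and a muscle tenotomized for 6 weeks. These 2 controls were thus the opposite leg of tenotomized rats. All animals were male Sprague Dawley rats housed on a 12 hour light cycle with free food and water, all tenotomized muscles were right muscles, 1 array was 1 muscle, and the labels give no age. No rat gave both an array of weeks 1 to 4 and a control array, so the cohort of rats and the side of the body cannot be told apart from tenotomy in any value set against control. Each week was taken from different rats, and the labels give no batch, so differences in age, batch or cohort cannot be told apart from the duration of tenotomy either.

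Tenotomy is the cutting of a tendon, which leaves the muscle attached at one end, shortened and without load. The soleus is a slow postural muscle of the calf, and unloading makes it lose mass, in part through ubiquitin ligases and the proteasome, the complex that degrades tagged proteins. Blood vessels, nerve, connective tissue and immune cells share the muscle with its fibres, so an array of the whole muscle reads them all, and fewer cells of a type cannot be told apart from less RNA per cell. The muscle identity of the arrays was plain: Myh7, which encodes slow myosin, the main isoform of the soleus, had a scaled signal of 8207 and 10902 at week 1 and of 7299 to 11808 at weeks 2 to 4, and its log2 difference between these times was -0.01 with a standard error (SE) of 0.22.

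Values below are scaled signals, that is, deposited linear intensities shifted so that every array has the same median. A signal under 9.69 was set to that floor, and values at the floor have no order. Differences are log2, week 1 minus weeks 2 to 4, with the SE of the fit, n = 2 against n = 4. Adjusted p-values are from limma with Benjamini-Hochberg adjustment over the 11599 genes tested, and a gene is called when its adjusted p is under 0.05. They measure the spread between arrays within 4 groups, which holds differences between rats and, where a group pools weeks, between time points; 2 of the 12 rats gave both a control array and an array at 6 weeks, with no block for the rat. An exact permutation test of 2 against 4 arrays could not go below 0.0667. The median gene differed by -0.03 between the early and the later group, so these differences are given as fitted. Against control it lay at -0.32 at week 1 and also at weeks 2 to 4, so changes from control are given relative to the median gene, while their adjusted p-values refer to the scaled change before that subtraction. Both changes from control share the same 4 control arrays.

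The 6 arrays correlated with each other at 0.90 to 0.93. One array did not lie with its group. On the first principal component of the 6 arrays, which held 41.8% of the variance, the week 1 arrays lay at -17.4 and -43.9 and those of rats 27, 32 and 42 between 21.5 and 31.5, but the 2 week array of rat 25 lay at -22.8, among the week 1 arrays. The ratio of 3' to 5' Gapdh probe sets, a measure of RNA integrity, was lower at week 1 (1.16 and 1.22) than on every later array (1.24 to 1.61), and its part in the results was not tested. Its exact 2-sided permutation p was 0.133, and that of the other 6 array measures 0.267 to 0.933, in a design that cannot reach 0.05. The controls differed from the 6 arrays in such measures. The geometric mean signal of the poly-A control RNAs was 52.7 to 81.9 in the controls and 90.6 to 251 on the 6 arrays. The Gapdh ratio was 1.38 to 2.78 in the controls. The part of these differences in the changes from control was not tested.

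Of the 11599 genes, 50 (0.431%) were called between week 1 and weeks 2 to 4 by limma with Benjamini-Hochberg adjustment: 26 (0.224%) were higher at week 1, by a median of 1.18, and 24 (0.207%) were lower, by a median of 1.73. At an unadjusted p under 0.05 there were 749 higher (6.46%) and 925 lower (7.97%). The arrays of the groups did not overlap for any of the 50, against 10.6% of all genes not overlapping with week 1 higher and 9.83% with week 1 lower. The 50 were picked by their p-values on these same arrays, so their lack of overlap is no further evidence. The calls were few and rested on the shared estimate of the spread over all 14 arrays: a fit on only the 6 arrays called 0 genes (1239 at an unadjusted p under 0.05), and without rat 12 or rat 13 the fit called 1 and 3. Leaving out rat 25, the array that lay apart, raised the count to 376, all 50 among them; leaving out rat 42 lowered it to 12, and leaving out single controls to between 25 and 42. All 50 kept their direction in every one of these fits, which reuse the arrays that picked them.

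The plot of signals by array shows the 9 genes that were called under all 5 scalings of the arrays tried: Hist4h4, Stmn3, Ppm1k and Ier3 higher at week 1, and Mmp12, Actg2, Mbp, Penk and Tagln lower.

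**Figure D1:**
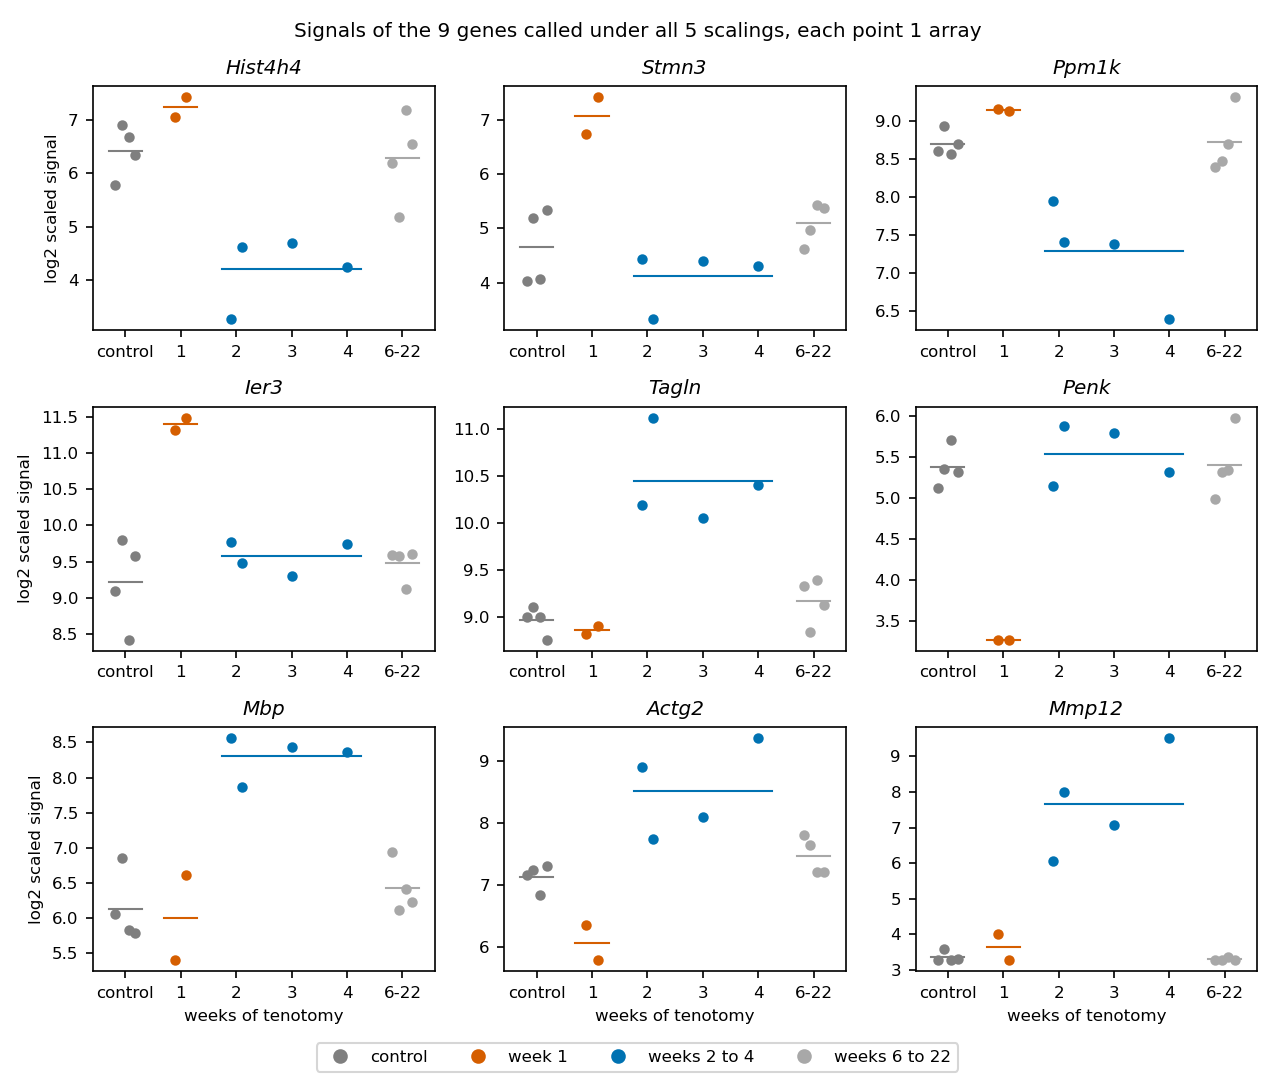
Log2 scaled signal (y axis) of 9 genes against weeks of tenotomy (x axis), 1 point per array: 4 controls, 2 arrays at week 1, 4 at weeks 2 to 4 and 4 at weeks 6 to 22, with a bar at each group's mean. In each panel both week 1 arrays lie outside the range of the 4 arrays of weeks 2 to 4.

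Set beside control, the 50 genes fell into 4 time classes. A gene was early transient when its week 1 arrays were called against control and against weeks 2 to 4 in the same direction. Of the rest, a gene was later when weeks 2 to 4 were called against control and against week 1 in the same direction. There were 5 genes with an early transient rise, 11 with an early transient fall, 13 with a later rise and 21 with a later fall. The classes were not exclusive against control: 3 later falls were already called below it at week 1, and 1 early fall was still below it later. An early class also does not mean a return to control. Of the 24 genes lower at week 1, 18 were called above control at weeks 2 to 4, among them the early falls Actg2, Cnn1, Prx and Sncg. Of the 26 genes higher at week 1, 22 were called below control at weeks 2 to 4, among them the early rise Myh14. A further 484 genes were called above control at both times and 2320 below it at both times, with no call between the times. Of all genes tested, 4.91% were called above control and 22.6% below at week 1, and 13.8% above and 37% below at weeks 2 to 4; these shares move with the scaling of the arrays, from 17.9% of the week 1 calls lying above control to 51.5% with a common trimmed mean, and from 27.1% to 56.5% at weeks 2 to 4.

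The early transient rises were Stmn3, Ier3, Gucy2g, Slc25a35 and Myh14. Stmn3, a stathmin family protein that binds tubulin, had signals of 106 and 171 at week 1, of 21.6, 10.1, 21.1 and 19.9 at weeks 2 to 4 and of 16.4 to 40.6 in the controls. Both week 1 arrays stood above every other array of these groups, the difference was 2.96 (SE 0.44, adjusted p = 0.012), and the change from control at week 1 was 2.74 (SE 0.44). Ier3, an immediate early gene that modulates survival signals, read 2572 and 2889 at week 1 against 627 to 874 at weeks 2 to 4 and 342 to 890 in the controls. Its week 1 signals were thus 3.58-fold the later ones (log2 1.84, SE 0.29, adjusted p = 0.012) and lay 2.51 (SE 0.29) above control. Of the 28 stretch responsive and early response genes tested, Ier3 was the single one called, against 0.431% of all genes. Ankrd1, a stretch responsive protein of the sarcomere, had a difference of -0.39 (SE 0.56) and Ankrd2, its relative in slow fibres, one of -0.96 (SE 0.38, adjusted p = 0.262).

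The remaining early rises were smaller. Gucy2g, a receptor guanylyl cyclase, read 92.0 and 99.3 at week 1 against 20.8, 23.6, 24.9 and 41.4 later, a difference of 1.84 (SE 0.38, adjusted p = 0.0449). Its other probe set differed as much (1.98) but was not above control at week 1 (0.11, adjusted p = 0.845 in the limma fit over all probe sets, before the median gene is subtracted) and was below it later (-1.87), so the call above control at week 1 rests on 1 probe set. Slc25a35, a mitochondrial carrier, read 169 and 199 at week 1 against 95.1, 42.4, 56.3 and 46.5 later, a difference of 1.69 (SE 0.31, adjusted p = 0.026). Myh14, a nonmuscle myosin heavy chain, read 831 and 950 at week 1, 338 to 465 later and 579 to 663 in the controls, so that it lay above control at week 1 (0.83) and below it afterwards (-0.32). Against control, Ier3 and Stmn3 were called at week 1 under all 5 scalings, and the other members of this class under 4. The call of Myh14 below control at weeks 2 to 4 held under 3 of the 5 (-0.32 to -0.14). The call of Gucy2g between week 1 and weeks 2 to 4 held under only 2 of the 5 scalings.

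Of the 21 later falls, Echs1, Egln3 and Rangrf were already called below control at week 1, and the others were not called against it then. Hist4h4, a histone H4 gene, read 132 and 172 at week 1, then the floor, 24.7, 25.9 and 19.1, while the controls read 55.2 to 119. Its difference of 3.02 (SE 0.48, adjusted p = 0.012) was the largest among the genes called higher at week 1, and its change from control was -1.89 at weeks 2 to 4 (adjusted p = 0.000297) and 1.13 at week 1 (adjusted p = 0.217). Ppm1k, the phosphatase that activates the branched-chain keto acid dehydrogenase, read 569 and 558 at week 1 and 247, 169, 166 and 84.0 later. The controls, at 379 to 485, lay between, and the difference was 1.86 (SE 0.33, adjusted p = 0.0224). Bcat2, the mitochondrial aminotransferase that begins branched-chain amino acid breakdown, read 626 and 675 at week 1, 229 to 293 later and 488 to 523 in the controls (difference 1.31, SE 0.26, adjusted p = 0.0334).

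Adhfe1, a mitochondrial hydroxyacid-oxoacid transhydrogenase, differed by 1.81 (SE 0.37, adjusted p = 0.0449), with signals of 320 and 480 at week 1 and 76.3 to 172 later. Echs1, the enoyl-CoA hydratase of fatty acid oxidation, differed by 0.98 (SE 0.20, adjusted p = 0.0388), with 1034 and 1322 at week 1 and 537 to 731 later, but both times lay under the controls at 1790 to 1959. Egln3, an oxygen-sensing prolyl hydroxylase, followed the same course, with 776 and 1087 at week 1, 242 to 527 later and 1316 to 1838 in the controls (difference 1.24, SE 0.26, adjusted p = 0.0468). Klhl33, a kelch-like protein (1.79, SE 0.36), LOC100909739 (1.53, SE 0.30) and Art5, an ADP-ribosyltransferase (1.24, SE 0.25), were also called, with adjusted p-values of 0.0383, 0.0364 and 0.0364. For the later falls among the named genes, 7 of 10 were called against control at weeks 2 to 4 under all 5 scalings: Adhfe1, Bcat2, Echs1, Egln3, Hist4h4, LOC100909739 and Ppm1k.

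Of the 35 proteasome subunits tested, 26 (74.3%) had an unadjusted p under 0.05 with week 1 higher, against 6.46% of all genes, and none with week 1 lower. Their median difference was 0.51, beside -0.03 for all genes, and 34 of 35 lay above 0. Relative to the median gene, the list's median stood at 0.01 and 0.25 above control on the week 1 arrays and at -0.16, -0.46, -0.20 and -0.43 on those of weeks 2 to 4, so the early and later arrays did not overlap. Adjusted over all genes, 1 member, Psmd2, a scaffold subunit of the regulatory particle, was called, against 0.224% of all genes called higher. Psmd2 read 2384 and 2368 at week 1, 1211 to 1557 later and 1996 to 2285 in the controls (difference 0.82, SE 0.16, adjusted p = 0.0306). Psmb5, a catalytic subunit of the 20S core, and Psmb1, another core subunit, had differences of 0.18 (SE 0.18) and 0.25 (SE 0.17), and Psmd9, an assembly chaperone, was the member below 0 at -0.17 (SE 0.22). Without rat 13 the count at an unadjusted p fell from 26 to 6 and the median to 0.38. The count was 15 on the deposited scale and also against weeks 3 and 4 alone, 16 without rat 27, 17 without rat 42 and 17 in the fit on only the 6 arrays.

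The ubiquitin ligases that mark muscle protein for the proteasome followed the same order. Among 26 atrophy ubiquitin ligases and FOXO targets, 0 were called by limma with Benjamini-Hochberg adjustment. Of them, 10 (38.5%) had an unadjusted p under 0.05 with week 1 higher, against 6.46% of all genes, and none with week 1 lower. The median difference was 0.42. Fbxo32 (atrogin-1) read 98.1 and 87.9 at week 1, 33.4, 11.0, 45.6 and 19.5 later and 39.8 to 76.4 in the controls. Its week 1 arrays lay above all the others named, with a difference of 1.96 (SE 0.44), but the adjusted p was 0.0655. Trim63 (MuRF1) read 1164 and 1587 at week 1 and 846, 449, 657 and 354 later (1.32, SE 0.32, adjusted p = 0.0987), while the controls, at 1251 to 2377, overlapped the week 1 arrays. Klf15, a transcription factor induced by glucocorticoids, differed by 1.29 (SE 0.29, adjusted p = 0.0655). At weeks 2 to 4 the change from control was -1.12 (SE 0.26) for Trim63, with a limma adjusted p of 0.00037, and Klf15 was called below control as well (adjusted p = 0.000292).

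**Figure D2:**
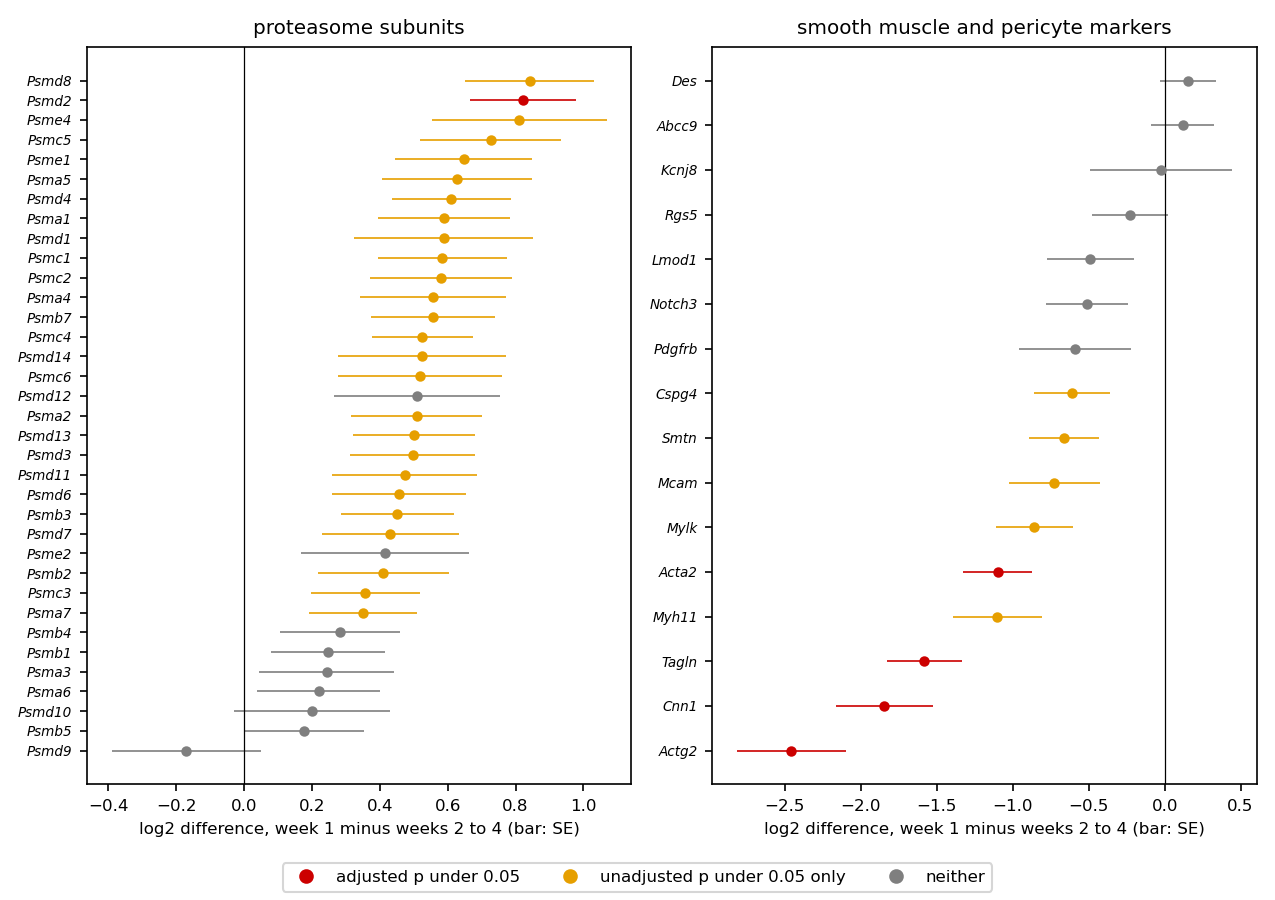
Log2 difference, week 1 minus weeks 2 to 4 (x axis, bar: SE), for each tested proteasome subunit (35, left) and each smooth muscle and pericyte marker (16, right). Red points have an adjusted p under 0.05, orange points an unadjusted p under 0.05 only; proteasome members lie mostly to the right of 0 and smooth muscle markers mostly to the left.

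Among the genes lower at week 1, the largest difference was that of Mmp12, the macrophage metalloelastase. It read 16.3 and the floor at week 1, then 67.1 and 254 at 2 weeks, 135 at 3 weeks and 727 at 4 weeks, with the controls at or near the floor (9.69 to 12.0). The week 1 arrays lay with the controls and all 4 later arrays above both, at a difference of -4.01 (SE 0.61, adjusted p = 0.012). Macrophage markers as a list did not show this step. Of 26 tested, 0 were called by limma with Benjamini-Hochberg adjustment and 1 had an unadjusted p under 0.05, against 14.4% of all genes in either direction. The median difference was 0.02, and the summed signal of the markers was 9543 and 12339 at week 1 and 8163 to 20364 later, against 5149 to 6726 in the controls. Cd68, a lysosomal macrophage marker, read 310 and 219 at week 1 and 143 to 454 later (0.03, SE 0.45) and was called above control at both times (2.28 and 2.26, SE 0.45 and 0.37).

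Smooth muscle and pericyte markers were lower at week 1. Of 16 tested, 4 were called lower, against 0.207% of all genes, and none higher. An unadjusted p under 0.05 with week 1 lower was found for 9 (56.2%), against 7.97% of all genes. The arrays did not overlap for 11 (68.8%), against 9.83% of all genes with week 1 lower. The median difference was -0.64. Actg2, enteric smooth muscle actin, read 81.5 and 55.1 at week 1, 477, 213, 273 and 660 later and 114 to 158 in the controls (-2.46, SE 0.36, adjusted p = 0.012). Tagln (SM22), an actin-binding protein, read 451 and 480 at week 1, 1170, 2231, 1062 and 1357 later and 433 to 550 in the controls (-1.58, SE 0.25, adjusted p = 0.012). Cnn1, calponin, read 24.1 and 26.6 at week 1, 63.1 to 132 later and 38.5 to 66.1 in the controls (-1.85, SE 0.32, adjusted p = 0.0202). Acta2, smooth muscle alpha actin, differed by -1.10 (SE 0.23, adjusted p = 0.0449), a call that held under 2 of the 5 scalings.

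These genes differed in their place relative to control. Tagln lay at control level at week 1 (0.22, SE 0.25) and 1.81 (SE 0.20) above it later, which made it a later rise. Actg2 and Cnn1 were called below control at week 1 (-0.75 and -0.76, adjusted p = 0.0359 and 0.0201) and above it later (1.71 and 1.09). Acta2 was called below control at week 1 (-0.63, adjusted p = 0.00715) and not called later (0.48, adjusted p = 0.517). Of these week 1 calls against control, that of Actg2 held under 1 of the 5 scalings and those of Cnn1 and Acta2 under 2, so the early dip of this list below control depends on the scaling, whereas its median difference between the times ran from -0.70 to -0.64 over the 5 scalings. The list's median stood at -0.25 and -0.30 on the week 1 arrays and at 0.60, 0.45, 0.25 and 0.58 on the later ones, and its summed signal was 8812 and 10396 against 10860 to 12180. Without rat 12 or without rat 13 none of the 4 calls of this list was kept, and the 9 at an unadjusted p became 8 and 6.

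Schwann cells wrap and myelinate the axons of the nerve within the muscle. Of 9 Schwann cell and nerve markers tested, 3 were called lower at week 1 and none higher, 5 (55.6%) had an unadjusted p under 0.05 and the median difference was -0.96; the 3 calls became 0 without rat 12 and 1 without rat 13 or rat 42. Of all genes tested, 0.207% were called lower and 7.97% had an unadjusted p under 0.05 with week 1 lower. Mbp, myelin basic protein, read 42 and 97.1 at week 1, 377, 233, 346 and 330 later and 54.9 to 115 in the controls (-2.31, SE 0.36, adjusted p = 0.012). Prx, periaxin, read 28.1 and 49.4 at week 1, 119, 121, 136 and 120 later and 63.4 to 93.1 in the controls (-1.73, SE 0.32, adjusted p = 0.026). Pmp22, a myelin membrane protein, read 1245 and 1190 at week 1, 1831 to 2981 later and 1109 to 1306 in the controls (-0.96, SE 0.20, adjusted p = 0.0449). For all 3 the later arrays stood above both week 1 and control.

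Probe sets of these genes did not all show the same. In a limma fit over all probe sets, the other Mbp probe sets differed by 0.28 and -0.73, with adjusted p-values of 0.88 and 0.621, and the other Pmp22 probe set by -0.05 (adjusted p = 0.964). The other Ppm1k probe sets, at 1.40 and 1.60, and that of Nr2f2, at -1.39, were near the ones reported in size but were not called (adjusted p = 0.203, 0.128 and 0.184). In that fit the reported probe sets of Nr2f2 and Pmp22 were not called either (adjusted p = 0.0614 for both). The same held for those of Acta2, Adhfe1, Art5, Echs1, Egln3, Gucy2g, Klhl33, Rangrf and Scrn1 (adjusted p = 0.0501 to 0.0618). It also held for those of Bsdc1, Fdft1, Fgl2, Fuom, Nme1 and Sirt2 (adjusted p = 0.0501 to 0.0618). Drp2, a dystrophin-related protein that binds periaxin in Schwann cells, was called too: it read the floor and 14.5 at week 1 and 40.6 to 58.9 later (-2.15, SE 0.39, adjusted p = 0.0259), but its other probe set differed by -0.60. Gap43, a growth cone protein also made by Schwann cells after nerve injury, had a difference of -0.20 (SE 0.28) and lay above control at both times (1.76 and 1.97). The list's summed signal was 2348 and 2465 at week 1, 3608 to 4920 later and 1916 to 2289 in the controls.

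Penk, the precursor of enkephalin peptides, was at the floor on both week 1 arrays and read 35.4 to 58.8 later and 34.7 to 52.4 in the controls. It was thus at least 4.78-fold lower at week 1 than later (adjusted p = 0.012) and did not differ between weeks 2 to 4 and control beyond the spread (0.48, SE 0.26, adjusted p = 0.636): an early transient fall. Scg2, secretogranin II of secretory granules, read 38.0 and 14.5 at week 1, 52.5, 284, 286 and 245 later and the floor in all 4 controls (-2.94, SE 0.55, adjusted p = 0.0274). Sncg, gamma-synuclein, read 207 and 193 at week 1 and 532 to 962 later (-1.92, SE 0.31, adjusted p = 0.0122). Mt3, a metallothionein, differed by -2.03 (SE 0.39, adjusted p = 0.0316).

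Early transient falls also took in signalling and adhesion genes. Rasgrf1, an exchange factor for Ras, read 18.0 and 34.0 at week 1, 88.2 to 150 later and 47.7 to 162.3 in the controls (-2.30, SE 0.41, adjusted p = 0.0228). Itga3, an integrin subunit that binds laminin, read 30.8 and 19.9 at week 1, 67.7 to 98.5 later and 67.1 to 122 in the controls (-1.69, SE 0.30, adjusted p = 0.0228). Scrn1, secernin, differed by -1.72 (SE 0.36, adjusted p = 0.0449). Of the 9 early transient falls named, Itga3, Penk and Rasgrf1 were called against control at week 1 under all 5 scalings. Of the 9 later rises named, 8 were called against control at weeks 2 to 4 under all 5: Drp2, Mbp, Mmp12, Mt3, Pmp22, Scg2, Sele and Tagln.

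Vessel lining and fat genes lay lower at week 1 with fewer calls. For the counts below, 7.97% of all genes had an unadjusted p under 0.05 with week 1 lower. Sele (E-selectin), an adhesion receptor of activated endothelium, read 14.1 and 13 at week 1, 55.1, 42, 61.2 and 96.3 later and 9.69 to 13.3 in the controls (-2.17, SE 0.35, adjusted p = 0.012). Of 18 endothelial markers, 0 were called by limma with Benjamini-Hochberg adjustment and 6 (33.3%) had an unadjusted p under 0.05, all lower at week 1, with a median difference of -0.37; the 6 became 2 without rat 12, 3 without rat 13 and 3 without rat 42, whose array held the highest median (0.79 above control, against 0.05 to 0.16 on the other later arrays). Plvap, of fenestrated endothelium, had the smallest p of that list (-1.02, SE 0.32, adjusted p = 0.175). Nr2f2, a nuclear receptor of venous endothelium and stroma, was called (-1.38, SE 0.29, adjusted p = 0.0449). Of 18 adipocyte markers, 0 were called by that test and 7 (38.9%) had an unadjusted p under 0.05, all lower at week 1, with a median of -0.85; without rat 12 the 7 became 2. Pparg, the master regulator of fat cells, read 30 and 20.5 at week 1 and 40.7 to 59.1 later (-0.91, SE 0.26, adjusted p = 0.148).

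**Figure D3:**
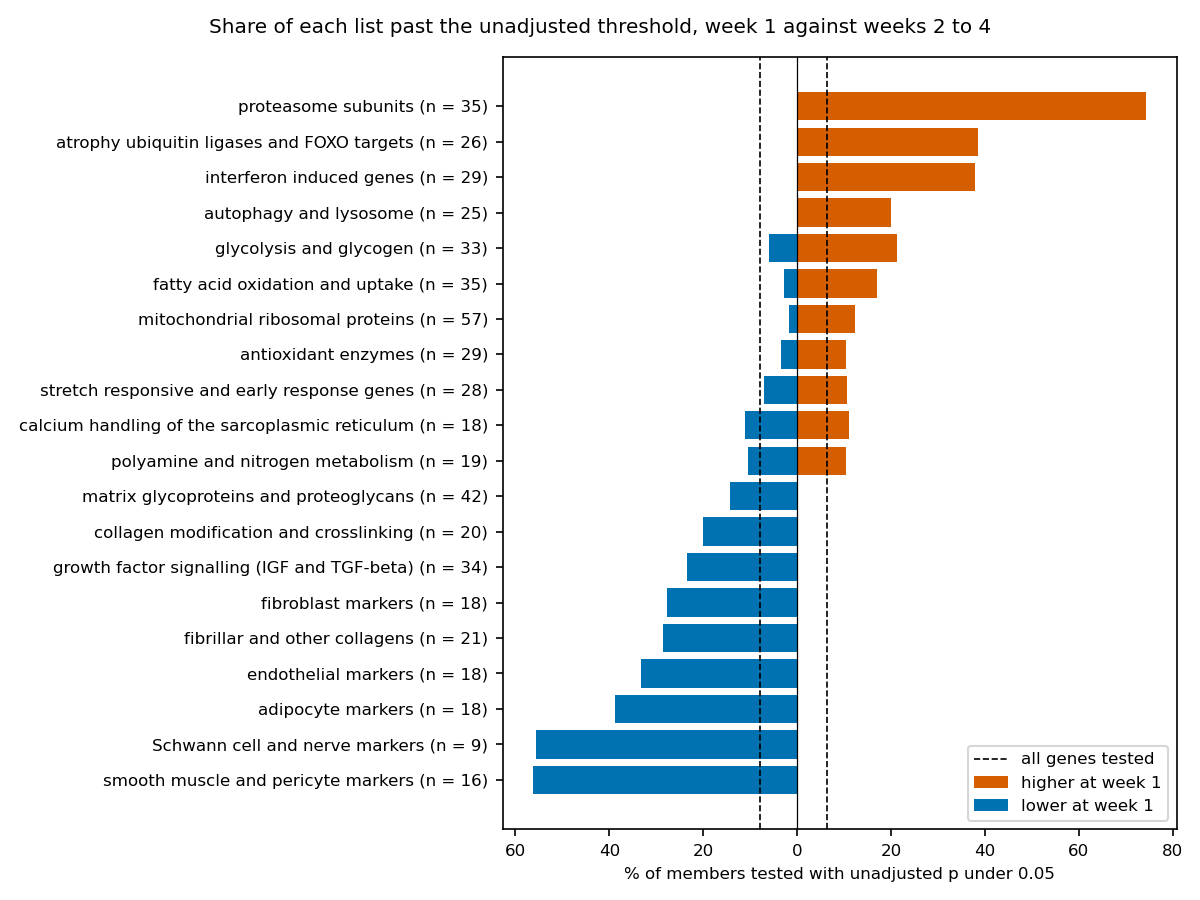
Percent of tested members of each list with an unadjusted p under 0.05 between week 1 and weeks 2 to 4 (x axis), higher at week 1 to the right and lower to the left, for lists with 4 or more such members (number tested in brackets). Dashed lines mark all genes tested (6.46% higher, 7.97% lower); proteasome subunits reach 74.3% on the right and smooth muscle markers 56.2% on the left.

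Against control, 10 of 21 collagens and 22 of 42 matrix glycoproteins and proteoglycans were called higher at week 1, and 21 and 33 of them at weeks 2 to 4, with 0 called lower by limma at either time. The share of all genes called higher also rose, from 4.91% at week 1 (2 arrays) to 13.8% at weeks 2 to 4 (4 arrays). Over the 5 scalings the week 1 counts of the lists ran from 6 to 11 and from 13 to 25, and the later ones from 20 to 21 and from 32 to 36. Col1a1 and Col3a1, the main fibrillar collagens, were called above control at both times: Col1a1 by 2.67 (SE 0.65) at week 1 and 3.26 (SE 0.53) later, and Col3a1 by 1.60 (SE 0.33) and 1.82 (SE 0.27). Their differences between the times, -0.59 (SE 0.65) and -0.21 (SE 0.33), were within the error. Of 21 collagens, 0 were called between the times by limma with Benjamini-Hochberg adjustment. Of them, 6 (28.6%) had an unadjusted p under 0.05, all lower at week 1, against 7.97% of all genes, and the list's median was -0.79. Col18a1, a basement membrane collagen, read 117 and 102 at week 1, 201, 442, 310 and 669 later and 74.3 to 114 in the controls (-1.75, SE 0.41, adjusted p = 0.0869). This count depended on single rats: it was 1 without rat 13, 9 without rat 12, 11 without rat 25, and 3 without rat 27 or rat 32. Rat 12 stood at 2.08 and rat 13 at 1.11 for the list's median above control, and the 2 week arrays at 1.64 (rat 25) and 2.96 (rat 27), so the early and later groups overlapped.

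Ranked by the smaller of their changes from control at the 2 times, the leading held rises were Tnn, Cthrc1, Spon1, Col8a1, Prss35 and Cxcl13. Tnn (tenascin N) was at the floor in all 4 controls and read 1220 and 197 at week 1 and 260 to 2693 later. Cthrc1, a collagen triple helix repeat protein of activated fibroblasts, lay 4.73 (SE 0.70) above control at week 1 and 6.42 (SE 0.57) later, and Spon1, a matrix protein, 4.59 (SE 0.49) and 5.26 (SE 0.40). Tnc (tenascin C), of tendon and injured muscle, read 375 and 127 at week 1 and 231, 3911, 1327 and 755 later, a wide spread that left the difference of -2.16 (SE 0.84) short of a call (adjusted p = 0.255). Inhba, the activin A subunit, read 80 and 44.4 at week 1, 122, 154, 426 and 388 later and 103 to 179 in the controls (-1.98, SE 0.45, adjusted p = 0.0762), but its other probe set differed by 0.34 (adjusted p = 0.754). It had the smallest p among 34 genes of growth factor signalling, of which 0 were called by that test and 8 (23.5%) had an unadjusted p under 0.05, all lower at week 1; these became 2 without rat 13.

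Interferon induced genes stood highest on a single week 1 array. Of 29 tested, 0 were called between the times by limma with Benjamini-Hochberg adjustment. Of them, 11 (37.9%) had an unadjusted p under 0.05 with week 1 higher, against 6.46% of all genes, and the list's median was 0.72. The list's median above control was 2.15 in rat 12 and 0.87 in rat 13, against 0.69 to 0.94 at weeks 2 to 4 and -0.17 to 0.17 in the controls. Without rat 12 the count of 11 became 0, with 1 lower instead, and the median 0.09, and without rat 13 they were 17 and 1.38. Mx2, an antiviral GTPase, read 2228 and 324 at week 1, 234, 156, 43.3 and the floor later, and 9.69 to 28.3 in the controls (3.76, SE 0.97, adjusted p = 0.116). It was called above control at both times, by 6.21 (SE 0.97) and 2.45 (SE 0.79), but the later call was lost in 10 of 22 other settings (1.56 to 2.45, adjusted p = 0.0505 to 0.118), among them leaving out rat 25, rat 27 or any of 3 controls. Its other probe set lay 0.43 above control at weeks 2 to 4 before the median gene is subtracted (adjusted p = 0.663).

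Interferon induced genes share a short promoter motif bound by the STAT and IRF factors, the interferon stimulated response element. Promoters of the 3 members with the largest difference among those that hold it are shown, because the motif was commoner in this list than the motifs searched in the other lists. They are RefSeq sequences of the rat build GRCr8, from 250 bases before to 50 bases after the gene start, 5′ to 3′ on the gene's strand, with matches to the motif on either strand in capitals; the motif searched was GAAA, any 2 bases, then GAAA. Oas1b belongs to the oligoadenylate synthetase family (chr12:41395803-41396102, minus strand), Ifit3 to the antiviral Ifit family (chr1:241527076-241527375, plus strand) and Irf7 is the master factor of interferon production (chr1:205799974-205800273, minus strand).
Oas1b: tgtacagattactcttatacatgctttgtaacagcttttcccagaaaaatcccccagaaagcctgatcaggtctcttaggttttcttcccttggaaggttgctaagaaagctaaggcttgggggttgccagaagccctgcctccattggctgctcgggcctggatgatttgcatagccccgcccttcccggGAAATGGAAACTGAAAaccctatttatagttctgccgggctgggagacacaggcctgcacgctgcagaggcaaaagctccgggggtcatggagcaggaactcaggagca
Ifit3: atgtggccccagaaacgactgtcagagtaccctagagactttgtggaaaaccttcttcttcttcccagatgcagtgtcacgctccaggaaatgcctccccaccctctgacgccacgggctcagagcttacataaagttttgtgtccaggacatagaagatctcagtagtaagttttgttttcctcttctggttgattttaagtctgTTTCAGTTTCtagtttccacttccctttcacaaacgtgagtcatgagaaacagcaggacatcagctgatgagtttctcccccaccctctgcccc
Irf7: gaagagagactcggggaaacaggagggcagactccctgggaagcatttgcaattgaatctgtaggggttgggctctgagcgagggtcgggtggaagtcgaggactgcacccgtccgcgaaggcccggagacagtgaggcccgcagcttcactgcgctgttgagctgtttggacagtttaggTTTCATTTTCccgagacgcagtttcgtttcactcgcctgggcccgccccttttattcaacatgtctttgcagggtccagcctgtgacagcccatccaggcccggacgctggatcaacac
The motif begins at -59 and -53 (overlapping matches) in Oas1b, -44 in Ifit3 and -69 in Irf7, counted from the gene start. It was found in 17 of the 24 list members with a promoter in the table (70.8%), against 3.77% of all 27457 promoters and 2.96% of those of tested genes. Of these 3 genes, Irf7 read 1208 and 395 at week 1 and 238 to 360 later (1.28, SE 0.47), Ifit3 372 and 42 at week 1 and 22.8 to 63.7 later (1.54, SE 0.69), and Oas1b 85.5 and 20.3 at week 1 and the floor to 25.1 later (1.57, SE 0.55). Each was highest in rat 12, and none was called, with adjusted p-values of 0.232, 0.327 and 0.216 from limma. In 31 proteasome promoters the antioxidant response element TGACNNNGC was found in 7 (22.6%), against 12.2% of all promoters and 14.5% of those of tested genes. The CArG box was in 0 of 11 smooth muscle marker promoters, against 1.64% of all and 1.31% of those of tested genes. A match is a run of letters and no evidence of binding.

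**Figure D4:**
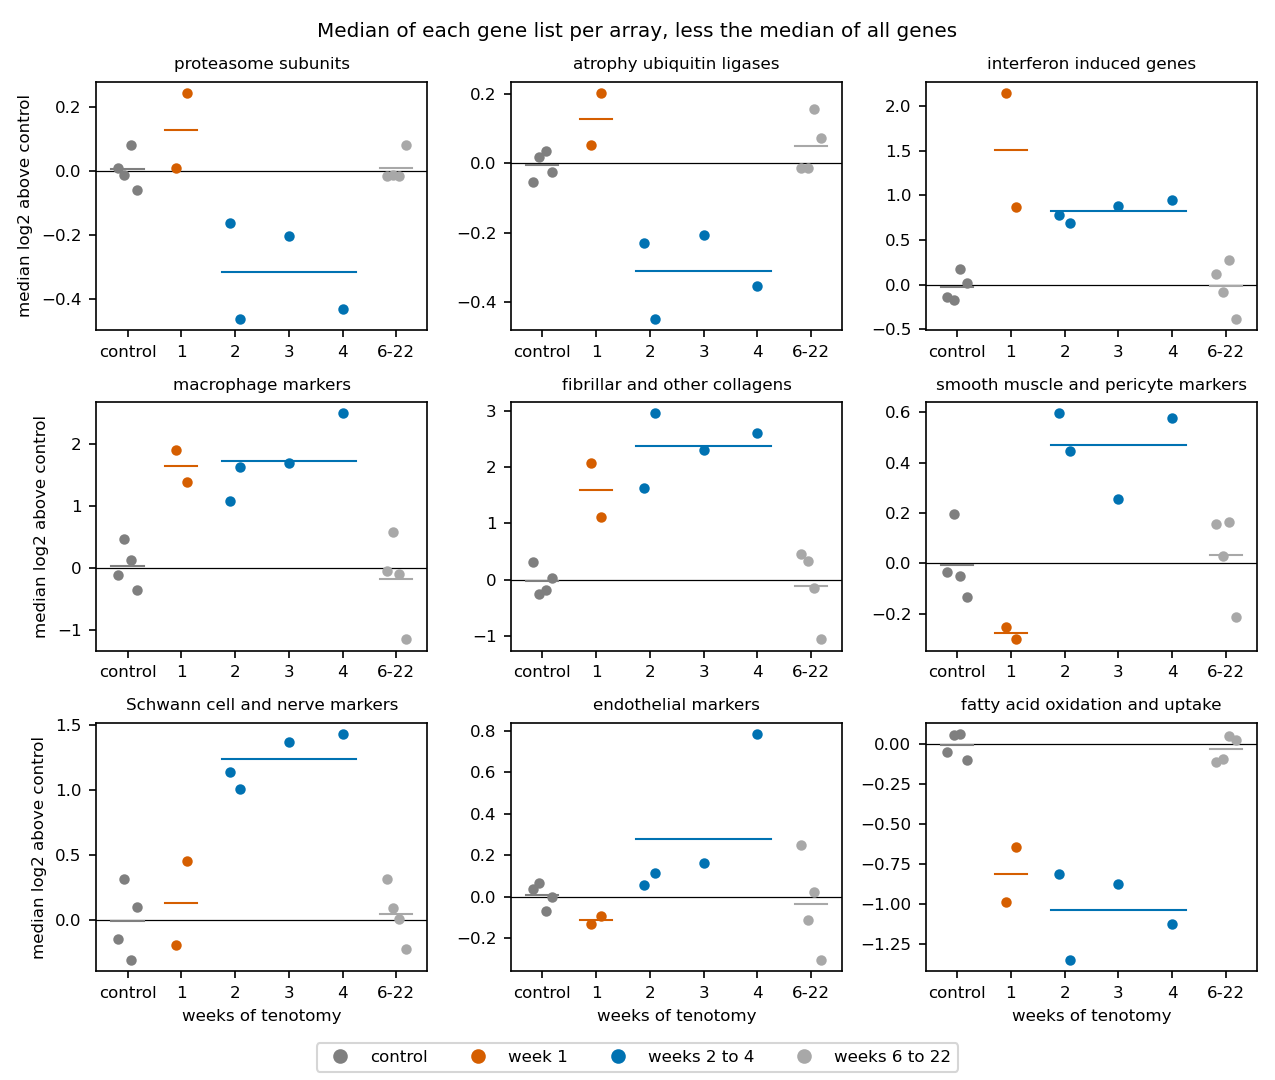
Median log2 change from the control mean of the members of 9 gene lists (y axis, less the median of all genes) against weeks of tenotomy (x axis), 1 point per array, bars at group means. Proteasome and atrophy lists lie higher at week 1, smooth muscle and Schwann lists lower, interferon genes are highest in 1 of the 2 week 1 arrays, and macrophage and collagen values overlap between the times.

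Of 35 genes of fatty acid oxidation and uptake, 28 were called below control at week 1 and 31 later, as were 50 and 64 of 70 genes of the respiratory chain and ATP synthase, 21 and 24 of 26 of the citric acid cycle and pyruvate oxidation, and 11 and 21 of 33 of glycolysis and glycogen, against 22.6% and 37% of all genes. These counts moved with the scaling, from 27 to 53 and from 41 to 66 for the respiratory chain and from 4 to 11 and from 12 to 21 for glycolysis. Between the times, of the same 35 genes of fatty acid oxidation and uptake, Echs1 was called and 6 (17.1%) had an unadjusted p under 0.05 with week 1 higher, and the list's median change from control was -0.87 at week 1 and -1.13 later; without rat 13 the 6 became 1. Among all genes, 0.224% were called higher at week 1. An unadjusted p under 0.05 was found for 6.46% with week 1 higher and for 14.4% in either direction. Of 70 genes of the respiratory chain and ATP synthase, 0 were called between the times by limma with Benjamini-Hochberg adjustment and 2 had an unadjusted p under 0.05, with a median difference of 0.03 and medians of -0.42 and -0.48 against control. Ppargc1a, the coactivator that drives mitochondrial biogenesis, was below control at both times (-2.44, SE 0.57, and -1.77, SE 0.47), with a difference of -0.66 (SE 0.57). Pdk4, which diverts pyruvate away from oxidation, read 2365 and 3358 at week 1, 979 to 1565 later and 3643 to 4403 in the controls (1.06, SE 0.25, adjusted p = 0.091). Aqp7, the glycerol channel, was among the strongest held falls, at -3.50 (SE 0.42) and -3.30 (SE 0.34).

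Of 16 fast fibre and 12 slow fibre contractile genes and 22 myogenic regulators and satellite cell genes, 0 were called between the times by limma with Benjamini-Hochberg adjustment, and 3, 1 and 1 had an unadjusted p under 0.05. Of all genes tested, 14.4% had an unadjusted p under 0.05 in either direction. Myh3, the embryonic myosin heavy chain, read 1584 and 1329 at week 1 and 1739 to 4732 later (-0.93, SE 0.59, adjusted p = 0.501). Myh8, the neonatal form, differed by 1.2 (SE 0.87) and Myh2, the fast IIa form, by -0.33 (SE 0.77). Myh4, the fast IIb form, read 1459 and 222 at week 1 and 54.3 to 238 later (2.07, SE 0.74, adjusted p = 0.225), its height again resting on rat 12. Myod1 and Myog, the myogenic regulators, differed by 0.55 (SE 0.52) and -0.02 (SE 0.20). Of 40 cell cycle genes, 0 were called by limma with Benjamini-Hochberg adjustment and 1 had an unadjusted p under 0.05; Mki67, a marker of cycling cells, read 89.5 and 45.3 at week 1 and 45.3, 116, 128 and 122 later (-0.58, SE 0.49).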

How the data were processed

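The authors deposited 1 linear intensity per probe set and array, from MAS5 per the submitters' processing notes; the software version and scaling target are not given in the sources used here. Array medians spanned 0.73 on the log2 scale, so each array was shifted to a common median in log2. Values under the pooled 25th percentile (9.69) were raised to it. The probe set with the highest mean stood for each of 14217 genes with 1 symbol (20826 probe sets; 436 had several and 9780 none), and 11599 genes above the pooled 40th percentile (22.0) on at least 2 arrays were tested. Gene names follow the GRCr8 annotation where the gene ID matched (20758 probe sets). All 14 arrays entered 1 limma 3.58.1 fit (R 4.3.3) with a mean per group and an intensity trend; the script was tested on simulated data. The number of arrays limits the precision.

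Members and gene lists were chosen with earlier results of these data known, and the 42 lists are described by counts and medians, not tested. Named genes are the 12 largest called, non-overlapping differences in each direction, the called or smallest-p members of each list, the leading members of each time class, and 18 genes fixed by name, of which Mstn and Hspa1b were not tested. Gap43, Psmb1, Psmb5, Psmd9, Irf7, Ifit3 and Oas1b lie outside this rule and were chosen after their values were seen. Alternatives were 4 other scalings, other filters, other samples and other fits, and leaving out each array in turn; all but the mean of probe sets used the same probe set per gene.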

Additional observations from a re-analysis of the deposited data

Results flagged for a closer look

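In 17 of 194 groups of 4 arrays, the signal of a named gene on 1 array stood far from the other 3: the gap to its nearest neighbour, as a share of the group's range, passed Dixon's critical value. Chance gives this in about 1 in 20 groups. At weeks 2 to 4 the shares were 0.908 for Scg2 and 0.906 for Mki67 (both low in rat 25), 0.944 for Polr1a, a subunit of RNA polymerase I, and 0.892 for Stmn3 (both low in rat 27), 0.871 for Prx (high in rat 32), 0.872 for Drp2 (low in rat 42) and 1 for Rhpn2, which was at the floor on the other arrays (13.2 in rat 25). Scg2 read 52.5 in rat 25 against 245 to 286, and Mki67 45.3 against 116 to 128, so in both genes the 2 week array of rat 25 lay near the week 1 arrays. Among the controls the share was 0.967 for Trim63 (2377 against 1251 to 1278) and 0.931 for Ppargc1a (2593 against 337 to 388), both high on the third control array, on which Myod1 (0.866) and Vim (0.831) were low. On the fourth it was 0.935 for Inhba and 0.849 for Myh3 (both high) and 0.876 for Stbd1 (low), on the first it was 0.944 for Gucy2g (low), and on the second it was 0.867 for Mmp12 (high, at 12.0) and 0.837 for Psmd2 (low).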

How the results depend on the processing

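The 50 calls kept their direction under every setting, but for 1 when all probe sets of a gene were averaged; their number did not keep. Genes higher and lower at week 1 than at weeks 2 to 4 (26 and 24) became 4 and 5 on the deposited scale, 40 and 30 with a common 75th percentile, 111 and 72 with quantile normalization, 46 and 34 with a common trimmed mean, 0 and 0 with only the 6 arrays, 62 and 70 with a mean per time point, 6 and 2 against week 2 alone, 10 and 19 with no intensity trend, and 74 and 181 against weeks 3 and 4, an alternative chosen after seeing the data. Leaving out single arrays gave 0 to 103 and 1 to 273. Early transient rises (5) became 2, 9, 26 and 12 under these 4 scalings, 10 with no filter, 0 with only the arrays compared, 15 with a mean per time point and 3 with no trend; falls (11) became 1 on the deposited scale, 29 with quantile normalization, 6 with no filter, 0 with only the arrays compared and 29 with a mean per time point. Later rises (13) became 4, 22, 40 and 25 under the 4 scalings, 0 with only the arrays compared, 41 with a mean per time point and 7 with all probe sets averaged; later falls (21) became 2 on the deposited scale, 81 with quantile normalization, 33 with the trimmed mean, 11 with no filter, 0 with only the arrays compared, 47 with a mean per time point and 7 with no trend. Without single arrays the ranges were 0 to 19 early rises, 0 to 51 early falls, 0 to 213 later rises and 0 to 83 later falls. Held rises (484) became 268, 746 and 944 on the deposited scale, the 75th percentile and the trimmed mean, and 72 to 521 without single arrays; held falls (2320) became 1015, 1273, 1028 and 888 under the 4 scalings, and 761 to 2468 without single arrays. Against control, week 1 calls (569 higher, 2617 lower) became 321 and 1125, 873 and 1486, 880 and 1256, and 1109 and 1045 under the 4 scalings, so the higher share of calls moved from 17.9% to 51.5% with the trimmed mean, and 89 to 663 and 833 to 2765 without single arrays. Those of weeks 2 to 4 (1599 higher, 4297 lower) became 2839 and 2184 with the trimmed mean (56.5% higher, from 27.1%), with 2674 lower under quantile normalization. Against control at weeks 2 to 4, Cav3 turned to 0.15 with quantile normalization. The cause of these shifts was not tested. Weeks 3 and 4 hold 1 array each and have no spread of their own, and a low count does not show that few genes differ. No paired analysis was possible because the rats of week 1, weeks 2 to 4 and the controls share no number; rats 61 and 62 are shared by the controls and weeks 6 to 22.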
